A study of Mus musculus with 12 samples.

Results

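The expression of 9 genes of rod and cone photoreceptors was followed in the postnatal day 7 (P7) mouse lens, out of 55487 gene identifiers in the count table. They were picked by name, as genes that encode parts of the light response or its transcriptional control, and all 9 were found: Opn1sw, Gnat1, Gnat2, Pde6b, Sag, Arr3, Rcvrn, Crx and Nrl. Lens RNA was compared between wild-type mice (WT), mice lacking Trpm3 (Trpm3-KO, made by homologous recombination and re-derived from frozen embryos), and mice with 1 (Trpm3-I/M) or both (Trpm3-M/M) copies of Trpm3 carrying the cataract-linked p.I65M substitution, made by CRISPR/Cas9 editing. TRPM3 is a cation channel that conducts calcium. The question was how the mutation and the loss of the channel each change lens gene expression. All strains were kept on the C57BL6/J background, and the mutation and the deletion were carried in every cell of the animal rather than in the lens alone. Each genotype had 3 libraries, and each library was a pool of 4 male and 4 female lenses, so p-values measure the spread between pools.

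Photoreceptors detect light with an opsin, of which rods and cones use different kinds. The activated opsin switches on transducin, transducin relieves the inhibition of a cyclic GMP phosphodiesterase, and the fall in cyclic GMP closes cation channels. Arrestins then bind and silence the opsin, and recoverin restrains the opsin kinase. The transcription factor CRX drives genes of both cell types, and NRL directs the rod fate. The lens is not a photosensitive tissue.

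The libraries held between 56162169 and 82090198 counts. The lens identity was plain, since 16 crystallin genes took 49.4% to 63.9% of the counts of each library. Their share was 61% to 63.9% in WT and 49.4% to 51.3% in Trpm3-M/M. Trpm3 itself was at 95.3 ± 5.02 CPM (SD, n = 3) in Trpm3-KO against 269 ± 17.3 in WT, a log2 fold change of -1.49 (SE 0.06, adjusted p = 3.36e-09, edgeR quasi-likelihood test), so that part of its reads remained. In Trpm3-I/M it was at 387 ± 23.4 CPM and in Trpm3-M/M at 475 ± 8.02 CPM. CPM is the count per 1e6 counts of the library, scaled between libraries by TMM factors, and 1 count was worth 0.0108 to 0.021 CPM. One library stood apart: Trpm3-I/M replicate 3 held 5 counts of the female-expressed X-linked RNA Xist, against 2182 to 16856 in the other 11 libraries, and the highest CPM of the Y-linked genes Ddx3y (27.2) and Eif2s3y (28). Its stated make-up of 4 male and 4 female lenses is therefore in doubt, and the Trpm3-I/M comparisons of the members and of the other photoreceptor genes named as changed are also given without it. For Trpm3 the mean of the remaining 2 Trpm3-I/M libraries was 392 CPM.

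Photoreceptor transcripts were scarce in WT lenses. The summed level of the 9 genes was 0.609 to 0.793 CPM per WT library and 0.579 to 0.977 per Trpm3-KO library. It was 0.729 to 0.894 CPM with 1 mutant copy and 13.5 to 22 CPM with both, where most of the sum was Arr3. Without Arr3 the sums were 0.567 to 0.753 CPM in WT and 1.34 to 2.79 CPM in Trpm3-M/M, with 0.561 to 0.959 and 0.634 to 0.822 CPM in the Trpm3-KO and Trpm3-I/M libraries, so that the Trpm3-M/M libraries still lay above all others. Bulk RNA cannot tell a change in the number of cells that make a transcript from a change in transcript per cell.

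**Figure D1:**
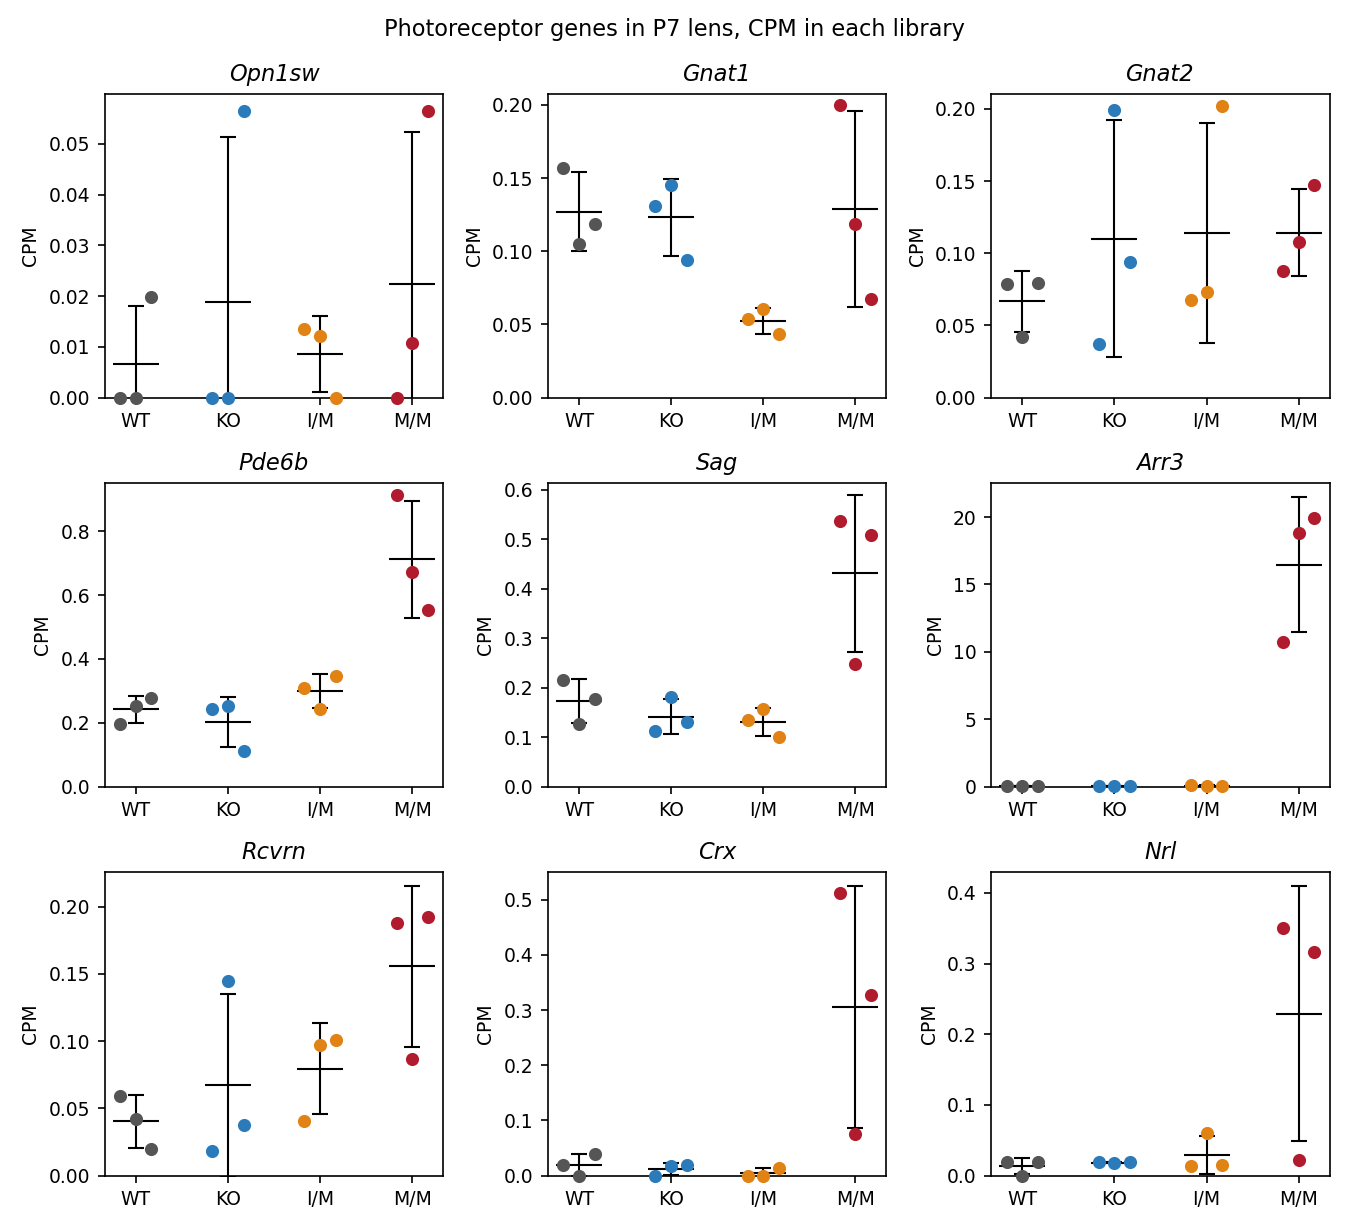
CPM (scaled by TMM factors, linear axes that differ between panels and start at 0) of each photoreceptor gene in the 3 libraries of each genotype; points are libraries in order of replicate number, the long dash is the mean and the whiskers are 1 SD, drawn no lower than 0. Arr3 sits between 10.7 and 19.9 CPM in the Trpm3-M/M libraries and at or below 0.108 CPM in the other 9, while the remaining 8 genes stay below 1 CPM.

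The depth of the data set what could be tested. Arr3 was the single member to reach 5 CPM in 3 libraries, the threshold for the 8984 genes of the principal test, and it did so through the Trpm3-M/M libraries alone, so that a difference between genotypes was built into its passing. Sag, Gnat1, Gnat2, Rcvrn and Pde6b reached 0.1 CPM in at least 3 libraries and were read from the same test on 17752 genes with that lower threshold. Rcvrn and Gnat2 each reached it in 5 libraries, 3 of them Trpm3-M/M. Opn1sw, Crx and Nrl reached neither threshold and are given as counts. The arrestins are described first, then the other parts of the light response back to the opsin, and last the transcription factors. A gene was called changed at a fold change of at least 2 and an adjusted p of at most 0.05.

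Arr3 encodes cone arrestin and lies on the X chromosome at chrX:100605497-100618493 (plus strand, GRCm38). In Trpm3-M/M lenses it was counted 857, 1730 and 1761 times, which is 10.7, 18.8 and 19.9 CPM. In WT it was counted 2 times in each of the 3 libraries, in Trpm3-KO 1 time in each, and in Trpm3-I/M 8, 2 and 5 times. All 3 Trpm3-M/M libraries thus lay far above the other 9, and no other member came near this difference. The Trpm3-M/M mean was 16.4 ± 5 CPM against 0.0403 ± 0.00147 in WT (SD, n = 3).

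Against WT, the log2 fold change of Arr3 in Trpm3-M/M was 8.61 (SE 0.39, adjusted p = 6.44e-10). Since only 6 WT counts stood behind the comparison, the ratio of the summed CPM is the better guide to its size: 414, with a 95% counting interval of 190 to 1130. Against Trpm3-I/M the log2 fold change was 7.91 (SE 0.33, adjusted p = 1.97e-09) and the ratio 251 (152 to 449). In Trpm3-I/M its log2 fold change against WT was 0.70 (SE 1.03, adjusted p = 0.645), a ratio of 1.65 whose counting interval ran from 0.604 to 5.19. Leaving out 1 library at a time moved that log2 fold change between 0.19 and 1.13, and it was 0.64 without Trpm3-I/M replicate 3. The counting intervals cover counting error only. Of the 8984 genes, 8.95% were called in Trpm3-M/M against WT and 4.7% against Trpm3-I/M.

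The nearest annotated neighbours of Arr3 are P2ry4, which ends 10628 bases before Arr3, and Pdzd11, which begins 4390 bases after it on the opposite strand. P2ry4, a nucleotide receptor gene, had 0 to 3 counts in every library and was too scarce to test. Pdzd11 was at 12.2 ± 0.642 CPM in WT and 13.7 ± 0.544 in Trpm3-M/M, a log2 fold change of 0.16 (SE 0.06, adjusted p = 0.0224), which was not called. Kif4, a kinesin motor gene that overlaps the far end of Pdzd11 and begins 7244 bases after Arr3 on the same strand, was called higher. It was at 2.17 ± 0.34 CPM in WT and 4.51 ± 0.728 in Trpm3-M/M, a log2 fold change of 1.05 (SE 0.14, adjusted p = 2.31e-05), and in Trpm3-I/M its log2 fold change was 0.42 (SE 0.15, adjusted p = 0.0566). The widely expressed arrestin genes were not called. Arrb1, which encodes beta-arrestin 1, was at 13.4 ± 0.649 CPM in WT and 20.9 ± 0.0627 in Trpm3-M/M, a difference under 2-fold. Every Trpm3-M/M library lay above every WT library for Arrb1, which was true of 32.8% of the 8984 genes. Arrb2 was at 3.11 ± 0.304 CPM in WT and 2.98 ± 0.462 in Trpm3-M/M. The deposited Arr3 counts were whole numbers in all 12 libraries.

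The sequences before the transcription start are shown for Arr3 and for Sag, Pde6b, Crx and Nrl, because in these genes every Trpm3-M/M library lay above every WT library with a mean at least 2-fold higher. Rcvrn met the same criterion but had no entry. Each run is the 250 bases before the start (RefSeq, GRCm38.p6), 5′ to 3′ on the strand of the gene, and the RefSeq starts of Pde6b, Crx and Nrl differ from the outer ends of the genes in the annotation used for gene positions. Capitals mark TAATCN, the core that CRX and related homeodomain proteins bind, and TGCTGA, the core letters bound by NRL and other large MAF factors, on either strand (on the other strand they read NGATTA and TCAGCA).
Arr3 (chrX:100605247-100605496, plus strand): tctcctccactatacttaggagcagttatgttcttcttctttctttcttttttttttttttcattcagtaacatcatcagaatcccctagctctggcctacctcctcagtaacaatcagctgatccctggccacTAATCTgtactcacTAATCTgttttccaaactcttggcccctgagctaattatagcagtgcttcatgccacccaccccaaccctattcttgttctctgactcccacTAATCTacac
Sag (chr1:87803430-87803679, plus strand): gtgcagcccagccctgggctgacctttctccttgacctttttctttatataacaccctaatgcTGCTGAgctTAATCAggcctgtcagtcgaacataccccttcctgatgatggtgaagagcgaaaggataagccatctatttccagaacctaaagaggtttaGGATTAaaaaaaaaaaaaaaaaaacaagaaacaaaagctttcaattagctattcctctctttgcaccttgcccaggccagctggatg
Pde6b (chr5:108388123-108388372, plus strand): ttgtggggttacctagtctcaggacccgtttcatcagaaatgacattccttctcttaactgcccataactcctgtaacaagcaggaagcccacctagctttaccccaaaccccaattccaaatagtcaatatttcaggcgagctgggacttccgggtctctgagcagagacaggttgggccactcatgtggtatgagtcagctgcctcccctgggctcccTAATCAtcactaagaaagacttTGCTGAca
Crx (chr7:15879956-15880205, minus strand): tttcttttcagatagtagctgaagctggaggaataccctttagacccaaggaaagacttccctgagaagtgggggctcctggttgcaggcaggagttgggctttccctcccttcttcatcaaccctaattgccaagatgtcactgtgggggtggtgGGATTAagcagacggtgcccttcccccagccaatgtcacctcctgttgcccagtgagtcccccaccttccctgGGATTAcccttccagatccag
Nrl (chr14:55524253-55524502, minus strand): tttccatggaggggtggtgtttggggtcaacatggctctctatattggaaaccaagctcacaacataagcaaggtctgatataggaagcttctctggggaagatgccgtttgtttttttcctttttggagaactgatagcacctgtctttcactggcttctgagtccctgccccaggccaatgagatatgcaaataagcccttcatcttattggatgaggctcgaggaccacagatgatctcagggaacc

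The Arr3 run held 3 copies of TAATCN, all reading TAATCT, with first bases 116, 102 and 10 bases before the start. The Sag run held 2, of which 1 was the preferred CRX core TAATCC in reverse, and 1 TGCTGA. Crx had 2 copies of TAATCC in reverse, Pde6b had 1 TAATCN and 1 TGCTGA, and Nrl had none of the 3 motifs. Of the 7 members with a RefSeq entry, 6 held TAATCN, 3 held TAATCC (which TAATCN includes) and 3 held TGCTGA. Among all 32851 promoters of the same length, 19.8% held TAATCN, 6.25% TAATCC and 16.1% TGCTGA. Gnat2 held TAATCC once and was called in no comparison. These are matches of letters, and no binding was measured.

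Sag, at chr1:87803680-87845158 (plus strand), encodes the rod arrestin (S-antigen). It was counted 11, 6 and 9 times in WT, 6, 10 and 7 in Trpm3-KO, 10, 13 and 7 in Trpm3-I/M, and 43, 23 and 45 in Trpm3-M/M. The Trpm3-M/M libraries were again above all others without overlap. Of the 17752 genes, 31.5% had every Trpm3-M/M library above every WT library, and 30.2% above every Trpm3-I/M library. The Trpm3-M/M mean of Sag was 0.432 ± 0.158 CPM against 0.174 ± 0.0453 in WT, a log2 fold change of 1.29 (SE 0.37, adjusted p = 0.00867). Against Trpm3-I/M it was 1.69 (SE 0.36, adjusted p = 0.0016). The arrestin pair therefore moved in the same direction by very different amounts. Levels per kilobase of exon were divided by the merged annotated exons of each gene, 2355 bases for Arr3 and 8904 for Sag. Merged exons can be longer than the transcript that is expressed, so these levels compare genes only roughly. In WT Arr3 and Sag stood at 0.0171 ± 0.000628 and 0.0195 ± 0.00507 CPM per kb, although in CPM Sag was higher (0.174 against 0.0403). In Trpm3-M/M they stood at 6.99 ± 2.13 and 0.0485 ± 0.0178 CPM per kb.

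Pde6b, at chr5:108388391-108432397 (plus strand), encodes the beta subunit of the rod phosphodiesterase. It was counted 10, 12 and 14 times in WT, 13, 14 and 6 in Trpm3-KO, 23, 20 and 24 in Trpm3-I/M, and 73, 62 and 49 in Trpm3-M/M. Among the called genes it was the most even across the Trpm3-M/M libraries, with a mean of 0.713 ± 0.183 CPM against 0.242 ± 0.0414 in WT. The log2 fold change was 1.55 (SE 0.31, adjusted p = 0.00065) against WT and 1.25 (SE 0.28, adjusted p = 0.00239) against Trpm3-I/M. Pde6a, the alpha subunit that pairs with it in the rod enzyme, did not follow. Its Trpm3-M/M log2 fold change was -0.50 (SE 0.28, adjusted p = 0.153), with 39, 28 and 25 counts in the Trpm3-M/M libraries.

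Recoverin, encoded by Rcvrn, was counted 3, 2 and 1 times in WT, 1, 8 and 2 in Trpm3-KO, 3, 8 and 7 in Trpm3-I/M, and 15, 8 and 17 in Trpm3-M/M. In CPM every Trpm3-M/M library was above every WT library, as in 31.5% of the 17752 genes. The lowest Trpm3-M/M library, at 0.0868, was however below 1 Trpm3-KO library and 2 Trpm3-I/M libraries. Against WT the log2 fold change was 1.89 (SE 0.69, adjusted p = 0.0326), and against Trpm3-I/M it was 0.94 (SE 0.55, adjusted p = 0.198), or 1.12 (SE 0.66, adjusted p = 0.21) without Trpm3-I/M replicate 3. This was the least secure of the calls. With DESeq2 the adjusted p was 0.0608, and leaving out WT replicate 2 or 3 gave 0.0737 and 0.112, and Trpm3-M/M replicate 1 or 3 gave 0.0761 and 0.0894. Rcvrn lies at chr11:67695326-67703333 and overlaps Glp2r, which is read from the opposite strand and was at 0.241 ± 0.0687 CPM in WT and 0.494 ± 0.0412 in Trpm3-M/M. The library kit is not described as keeping strand, so reads of the overlapping genes cannot be told apart.

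The transducin alpha subunits gave no call. Gnat1, of rods, at chr9:107674474-107679712 (minus strand), was counted 8, 5 and 6 times in WT, 7, 8 and 5 in Trpm3-KO, 4, 5 and 3 in Trpm3-I/M, and 16, 11 and 6 in Trpm3-M/M. Its log2 fold change in Trpm3-M/M against WT was 0.00 (SE 0.47, adjusted p = 0.997), and its sign turned with the scaling used. The Trpm3-I/M libraries were all below the WT libraries, which was true of 17.8% of the 17752 genes, with a log2 fold change of -1.24 (SE 0.51, edgeR adjusted p = 0.105). Trpm3-M/M stood above Trpm3-I/M by 1.24 (SE 0.48, adjusted p = 0.0507), which passed without Trpm3-M/M replicate 3 (adjusted p = 0.0188) and with scaling by library size alone (adjusted p = 0.0122). Without Trpm3-I/M replicate 3 the adjusted p was 0.221 for Trpm3-I/M against WT and 0.131 for Trpm3-M/M against Trpm3-I/M.

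Gnat2, of cones, at chr3:108092789-108101432 (plus strand), was counted 4, 2 and 4 times in WT, 2, 11 and 5 in Trpm3-KO, 5, 6 and 14 in Trpm3-I/M, and 7, 10 and 13 in Trpm3-M/M. The 14 counts belong to Trpm3-I/M replicate 3, the library with almost no Xist. Trpm3-M/M was above WT in every library, as in 31.5% of the 17752 genes. The log2 fold change was 0.76 (SE 0.64, adjusted p = 0.345), and the ratio to WT of 1.71 had a counting interval of 0.815 to 3.93. In Trpm3-I/M the log2 fold change was 0.73 (SE 0.65, adjusted p = 0.484), and without replicate 3 of that genotype it was 0.07 (SE 0.69, adjusted p = 0.97).

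Opn1sw, at chr6:29376671-29388468 (minus strand), encodes the short-wavelength cone opsin. Its counts were 0, 0 and 1 in WT, 0, 0 and 3 in Trpm3-KO, 1, 1 and 0 in Trpm3-I/M, and 0, 1 and 5 in Trpm3-M/M. No genotype was separated from another, and a difference was not detectable at this depth, where 3 counts in 1 library correspond to 0.0325 to 0.063 CPM. Opn1sw overlaps Calu, a calcium-binding protein gene read from the opposite strand at 57.7 ± 4.49 CPM in WT, so that a few counts could belong to either. The middle-wavelength opsin Opn1mw had 0, 3 and 0 counts in Trpm3-M/M and 2, 1 and 4 in WT. Arr3 was therefore not accompanied by cone opsins at a like level. Per kilobase of exon, Arr3 stood in Trpm3-M/M at 4.54 to 8.45 CPM, Gnat2 at 0.0292 to 0.0491, Pde6c, the cone phosphodiesterase, at 0.0146 to 0.0295, Opn1mw at 0 to 0.0208 and Opn1sw at 0 to 0.0221.

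**Figure D2:**
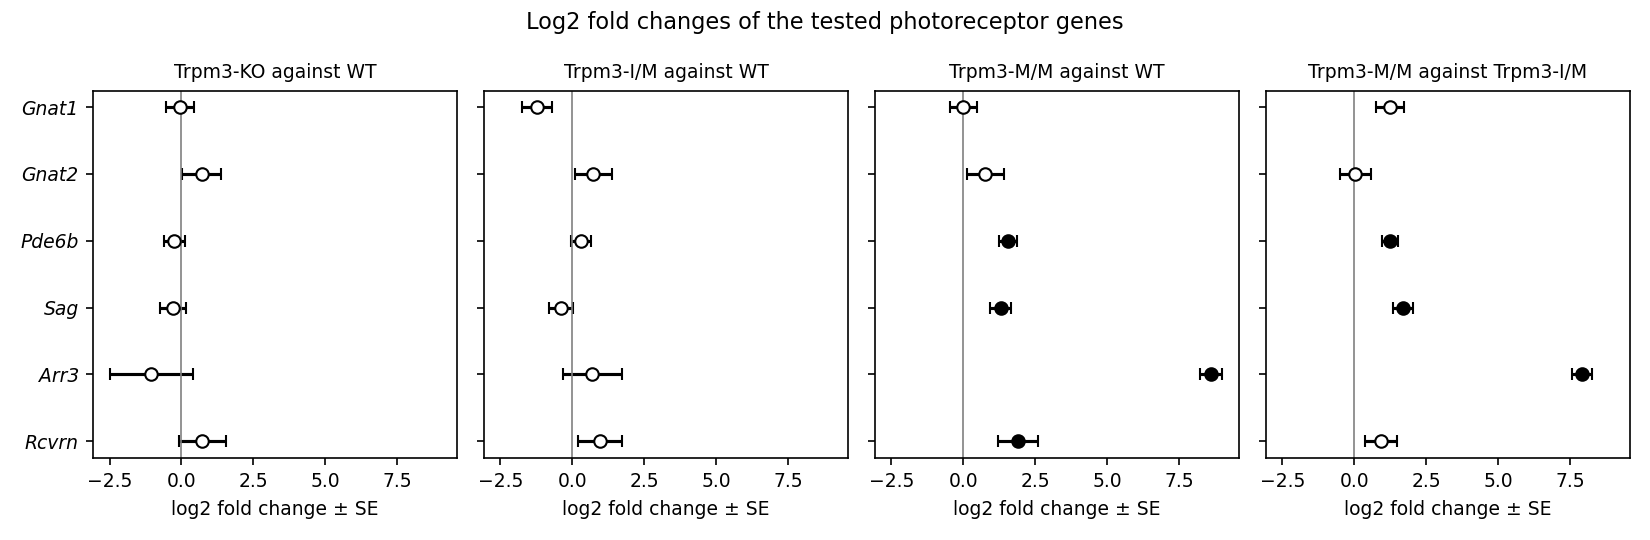
Log2 fold change (point) with its standard error (whisker) for the 6 photoreceptor genes that could be tested, in each of the 4 comparisons, with filled points for genes called at a fold change of at least 2 and an adjusted p of at most 0.05. Calls appear in the 2 panels with Trpm3-M/M alone, where Arr3 lies at 8.61 and 7.91 and the remaining called genes between 1.25 and 1.89.

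The transcription factors Crx and Nrl were almost absent outside Trpm3-M/M. They lie at chr7:15865947-15879968 and chr14:55518978-55524981, both on the minus strand. Crx was counted 1, 0 and 2 times in WT, 0, 1 and 1 in Trpm3-KO, 0, 0 and 1 in Trpm3-I/M, and 41, 7 and 29 in Trpm3-M/M. Nrl was counted 1, 0 and 1 times in WT, 1, 1 and 1 in Trpm3-KO, 1, 5 and 1 in Trpm3-I/M, and 28, 2 and 28 in Trpm3-M/M. Both were high in Trpm3-M/M replicates 1 and 3, whereas in replicate 2 they stood at 7 and 2 counts, and for Nrl that library lay below 1 Trpm3-I/M library. The ratio of summed CPM between Trpm3-M/M and WT was 14.7 for Crx (counting interval 4.83 to 72.6) and 16.6 for Nrl (4.38 to 140). The exact two-sided permutation test gave p = 0.1 for each, and 3 libraries against 3 can reach no smaller p. In a fit with no filter, on 32253 genes, both were called in Trpm3-M/M against WT (adjusted p = 2.07e-06 and 2.25e-05), where 10.7% of all genes were called.

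Counted together, 4 of the 6 tested members rose in Trpm3-M/M against WT (Arr3, Sag, Pde6b and Rcvrn) and none fell, in a comparison in which 12.7% of the 17752 genes were called higher. Arr3, Rcvrn and Gnat2 reached the threshold of 0.1 CPM in 3 libraries only with the Trpm3-M/M libraries counted, so a difference was built into their passing, and of the remaining 3 members 2 rose (Sag and Pde6b). Against Trpm3-I/M 3 of 6 rose, beside 9.29% of all genes. The median log2 fold change of the 6 was 1.42 and 1.24, while that of all 17752 genes was 0.02 and 0.04. Over the 3 members that passed without the Trpm3-M/M libraries the median against WT was 1.29. In 7 of the 9 genes every Trpm3-M/M library lay above every WT library. This was true of 20.5% of the 32253 genes with a count and of 31.5% of the 17752 genes. Without Trpm3-I/M replicate 3 the same number, 3, were called against Trpm3-I/M. The log2 fold changes were then 7.97 for Arr3, 1.54 for Sag and 1.36 for Pde6b. These genes were chosen with the results of the data known, so the counts describe them and do not test them as a set.

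Against WT no member was called with 1 mutant copy or without the channel, by edgeR or by DESeq2. At an unadjusted p under 0.05 there was 1 in Trpm3-I/M (Gnat1, lower) and 0 in Trpm3-KO. The share of all 17752 genes called was 6.03% and 1%, respectively. The comparisons with WT share the same 3 WT libraries. For Sag, Pde6b and Rcvrn the log2 fold changes in Trpm3-I/M were -0.39 (SE 0.43), 0.30 (SE 0.34) and 0.95 (SE 0.77), and without Trpm3-I/M replicate 3 they were -0.24 (SE 0.47), 0.19 (SE 0.38) and 0.77 (SE 0.86). In Trpm3-KO they were -0.29 (SE 0.44), -0.25 (SE 0.37) and 0.72 (SE 0.82), and for Arr3 -1.05 (SE 1.44). Missing the threshold with errors of this size does not show that the genotypes were alike.

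The 3 Trpm3-M/M libraries did not rank the genes in the same way. Crx was at 0.513, 0.0759 and 0.327 CPM in replicates 1 to 3, and Nrl at 0.35, 0.0217 and 0.316. Sag and Rcvrn were also lowest in replicate 2, but Pde6b and Gnat1 were lowest in replicate 3 and Gnat2 and Opn1sw in replicate 1. Arr3, by contrast, was lowest in replicate 1 (10.7 CPM) and near its highest in replicate 2 (18.8 CPM). Among the 47 photoreceptor genes tested, which are the members and the lists described next, 26 were lowest in replicate 2 (55.3%), against 28% of all 17752 genes. The 6 tested members alone were lowest in replicates 1, 2 and 3 in 2 cases each (33.3% in replicate 2), and of the rod list 36.4% were lowest in replicate 2. The genes Prph2 and Nr2e3 are named here after their values were seen. Prph2, a structural protein of the outer segment disc, had 38, 7 and 29 counts.

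**Figure D3:**
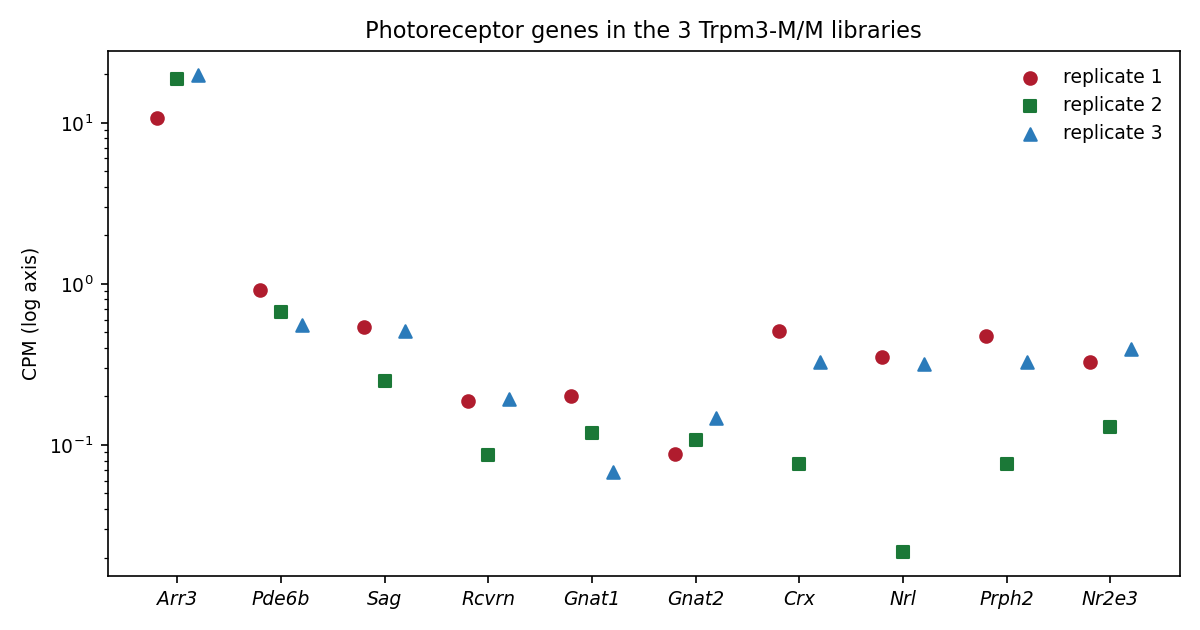
CPM on a log axis of 8 of the 9 chosen photoreceptor genes and of Prph2 and Nr2e3 in the 3 Trpm3-M/M libraries, with 1 symbol per replicate. Replicate 2 is the lowest for Sag, Rcvrn, Crx, Nrl, Prph2 and Nr2e3, whereas Arr3 and Gnat2 are lowest in replicate 1 and Pde6b and Gnat1 in replicate 3; Opn1sw, with no count in replicate 1, is not drawn.

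The wider set of photoreceptor genes was read from 6 lists written from general knowledge. The lists overlap with those of other cells described below. The visual cycle list shares Rlbp1 with the Muller glia list, and Rpe65 and Rgr with the pigmented cell list. Rlbp1 rose in Trpm3-M/M and is counted in both of its lists. Of the 47 genes tested in these lists and the members together, 20 rose and 2 fell in Trpm3-M/M against WT (42.6% and 4.26%), beside 12.7% and 4.35% of all 17752 genes. In Trpm3-I/M 5 rose and 2 fell (10.6% and 4.26%), beside 4.19% and 1.84% of all genes, and the numbers were 5 and 2 without its replicate 3. In Trpm3-KO 0 rose and 1 fell (0% and 2.13%), beside 0.462% and 0.541% of all genes. Against Trpm3-I/M, 14 rose in Trpm3-M/M and 0 fell (29.8% and 0%), beside 9.29% and 2.14% of all genes. Without Trpm3-I/M replicate 3 the numbers were 11 and 0 (23.4% and 0%), beside 9% and 1.87%. Of the 47 genes, 12 reached the threshold only with the Trpm3-M/M libraries counted, 8 of which rose. Of the remaining 35 genes 12 rose (34.3%), beside 9.91% of the 16715 genes that reached the threshold in the same way, a comparison chosen after the data were seen.

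Of 17 rod phototransduction genes listed, 11 were tested, and their median in the comparison of Trpm3-M/M with WT was 0.34 (log2 fold change). The most abundant genes of the list are also expressed well beyond the retina. Gnb1, a G protein beta subunit, differed by 0.21 on the log2 scale (SE 0.04, adjusted p = 3e-04), under the 2-fold threshold. Gnb5 and Rgs9, which speed the shut-off of transducin, had log2 fold changes of 0.34 (SE 0.11) and 0.22 (SE 0.14).

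Of the 8 cone phototransduction genes 3 were tested and 1 rose in Trpm3-M/M, Gnb3, the cone transducin beta subunit. Gnb3 was at 14, 16 and 15 counts in WT, 18, 16 and 18 in Trpm3-KO, 196, 256 and 208 in Trpm3-I/M, and 187, 210 and 227 in Trpm3-M/M. It therefore rose in both mutant genotypes, on the log2 scale by 3.26 with 1 mutant copy (SE 0.15, adjusted p = 1.63e-09) and by 2.98 with both (SE 0.15, adjusted p = 8.25e-10). Without Trpm3-I/M replicate 3 the former was 3.24. This was unlike Arr3, which was at 2 to 8 counts in the same Trpm3-I/M libraries. Slc24a2, a cone sodium-calcium exchanger, was at 0.59 (SE 0.09) in Trpm3-M/M, and Gngt2, the cone gamma subunit, at 1.17 (SE 0.71, adjusted p = 0.184).

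The photoreceptor transcription factors had the highest median of these lists, 1.98, with 6 of 9 tested genes higher and 1 lower in Trpm3-M/M. However, 5 of the 9 passed the threshold only through the Trpm3-M/M libraries, and 4 of the 6 higher genes were among these. The remaining 4 genes, of which 2 were higher and 1 lower, had a median of 0.70. Nr2e3, a rod factor that acts with NRL and CRX and 1 of the genes that passed only through Trpm3-M/M, had 0, 3 and 2 counts in WT and 26, 12 and 35 in Trpm3-M/M (log2 fold change 3.00, SE 0.72, adjusted p = 0.00274). Prdm1, which favours photoreceptors over bipolar cells and is also made by other cell types, rose by 3.31 with 1 mutant copy (SE 0.56, adjusted p = 0.00053) and by 4.17 with both (SE 0.52, adjusted p = 8.04e-06). Rorb rose in both as well, by 1.12 and 1.27. Thrb, the thyroid hormone receptor that directs the middle-wavelength cone fate, fell in both, by 2.37 (SE 0.23, adjusted p = 2.74e-06) and 1.91 (SE 0.21, adjusted p = 3.1e-06) on the log2 scale. Without Trpm3-I/M replicate 3 the Trpm3-I/M log2 fold changes were 3.22 for Prdm1, 1.12 for Rorb and -2.54 for Thrb, all still called. Rxrg, the most abundant of the list, had a log2 fold change of 0.13 (SE 0.11) in Trpm3-M/M.

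In the outer segment and cilium list, 9 of 15 genes were tested. In Trpm3-M/M 4 rose (Cdhr1, Rp1, Prom1 and Rd3) and 1 fell (Rpgrip1). Cdhr1, a cadherin of the outer segment base, was counted 2, 5 and 11 times in WT, 65, 58 and 45 in Trpm3-I/M and 404, 345 and 286 in Trpm3-M/M, and rose in both (log2 fold change in Trpm3-I/M 2.69 without its replicate 3). Rp1, a microtubule protein of the axoneme, had 1 count in all WT libraries together and 26, 13 and 27 in Trpm3-M/M, and it passed the threshold only through the latter. Rpgrip1, which anchors a regulator of ciliary transport, was lower than WT in all 3 other genotypes and was the single call in Trpm3-KO among the photoreceptor lists. It was counted 270, 185 and 275 times in WT, 10, 19 and 10 in Trpm3-KO, 165, 213 and 148 in Trpm3-I/M, and 142, 91 and 95 in Trpm3-M/M. The log2 fold change in Trpm3-KO was -4.33 (SE 0.28, adjusted p = 1.94e-07), and in Trpm3-I/M without replicate 3 it was -1.02 (SE 0.23, adjusted p = 0.00621). Unc119 and Rom1, the other abundant genes of the list, had log2 fold changes of -0.16 (SE 0.07) and -0.02 (SE 0.15).

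Of the 8 visual cycle genes 4 were tested and 3 rose in Trpm3-M/M, with a median of 1.43. Abca4, the retinoid transporter of the disc rim, was at 14.7 ± 0.623 CPM in WT, 23.8 ± 2.87 with 1 mutant copy (25.4 as the mean of 2 libraries without replicate 3) and 44 ± 5 with both, where its log2 fold change was 1.58 (SE 0.09, adjusted p = 7.44e-09). Rbp3, the retinoid carrier of the space around photoreceptors, rose by 1.29 (SE 0.21, adjusted p = 9.43e-05) and Rlbp1, the retinaldehyde-binding protein, by 2.00 (SE 0.29, adjusted p = 4.01e-05). Rpe65, the isomerase of the pigment epithelium, had no count in any library. In the photoreceptor synapse list 1 of 5 tested genes rose, Slc17a7, which passed the threshold only through Trpm3-M/M, with the abundant Ctbp2 and Pclo not called.

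**Figure D4:**
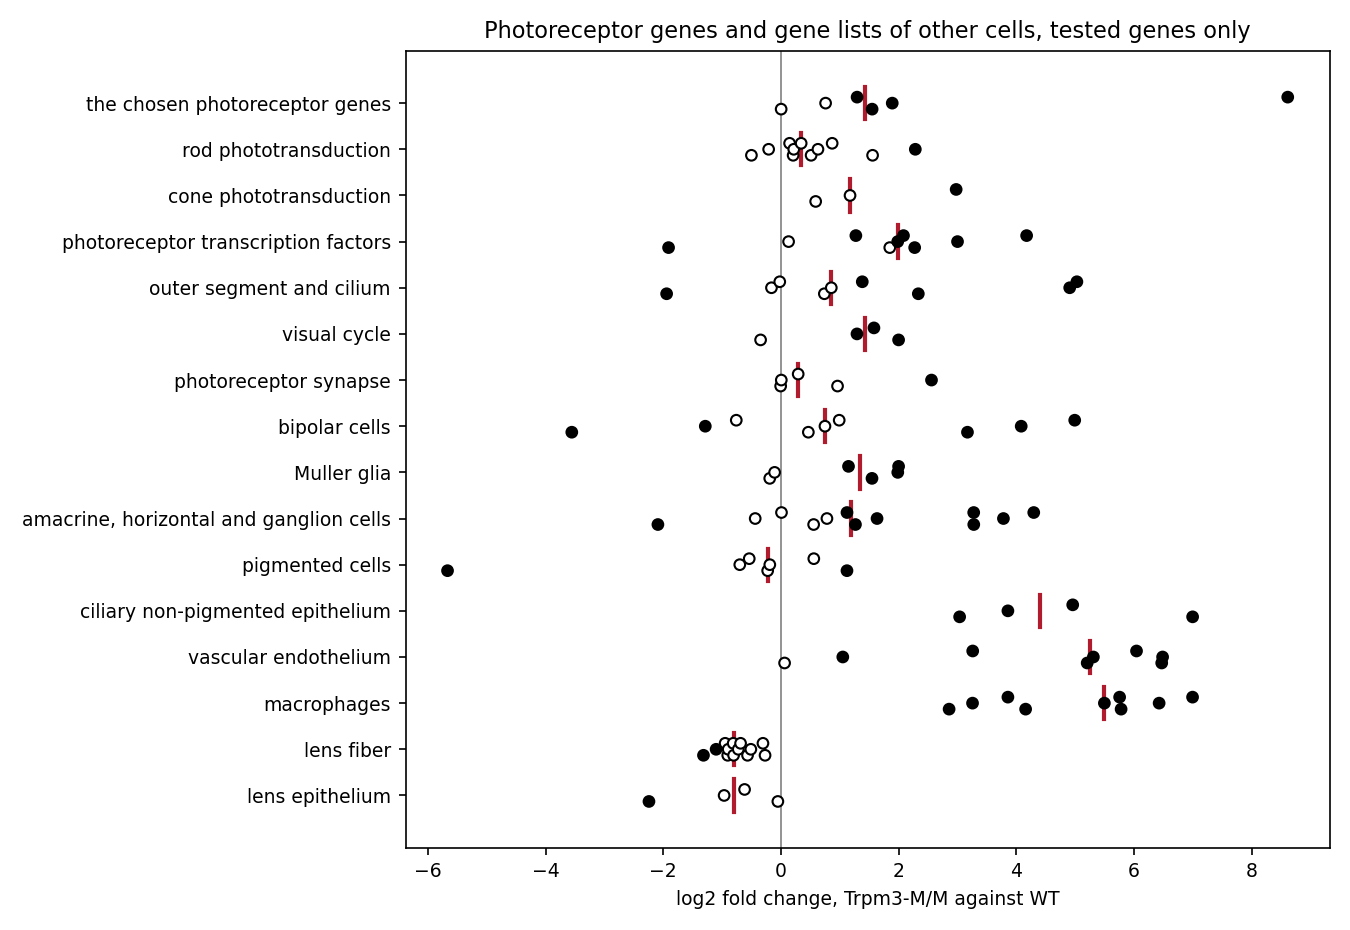
Log2 fold change in Trpm3-M/M against WT of every gene tested on 17752 genes, by list (rows), with filled points for called genes and a red bar at the median of each list; genes that were not tested are not drawn, and the order of points within a row carries no information. Arr3 at 8.61 is the farthest point of the chosen genes, the medians of the photoreceptor lists lie between 0.29 and 1.98, and the macrophage, endothelial and ciliary medians lie at 5.49, 5.25 and 4.41. Over genes that reach the threshold without the Trpm3-M/M libraries, the photoreceptor medians lie between 0.15 and 1.78. The macrophage, endothelial and ciliary medians are then 3.25 (3 genes), 5.25 (8 genes) and 3.03 (1 gene).

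Markers of several other kinds of cell, though not of all, rose in the same libraries, where 12.7% of all 17752 genes rose and 4.35% fell. Of the retinal lists, 3 of 9 bipolar genes rose and 2 fell in Trpm3-M/M. Of 6 Muller glia genes 4 rose, 1 of them Rlbp1, which is also in the visual cycle list. Of 12 amacrine, horizontal and ganglion cell genes 7 rose and 1 fell. Of the higher genes 1, 1 and 3, respectively, had passed the threshold only through Trpm3-M/M. The summed levels in Trpm3-M/M and WT were 192 to 206 and 89.5 to 106 CPM for bipolar genes, 33.6 to 36.2 and 17 to 18.9 for Muller glia, and 12.8 to 13.8 and 6.7 to 7.22 for the last list. The bipolar sum was carried by its abundant genes, of which Grik1, a glutamate receptor subunit, was at 5.26 ± 1.41 CPM in WT and 89.2 ± 2.6 in Trpm3-M/M. Cabp5, a calcium-binding protein, was at 5.59 ± 1.35 and 50.4 ± 8.39, and Prkca, which many cells express, had a log2 fold change of -0.76 and was not called. The bipolar genes that fell were Car8 and Nyx, at 1.83 and 2.87 CPM per kb of exon in WT and 0.156 and 1.18 in Trpm3-M/M. Grik1 and Cabp5 were also called higher, and Car8 lower, in Trpm3-I/M against WT. Without Trpm3-I/M replicate 3 these log2 fold changes were 2.13, 1.23 and -2.11, all still called. The cholinergic amacrine marker Chat had no count in any library.

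Outside the retina, all 9 tested macrophage genes rose in Trpm3-M/M, and the list summed to 9.05 to 17.1 CPM against 0.436 to 0.629 in WT. Of 8 endothelial genes 7 rose (55.3 to 64.5 against 13.8 to 16.3 CPM), as did 4 of 4 ciliary epithelium genes (2.07 to 3.15 against 0.105 to 0.295) and 6 of 8 fibroblast and pericyte genes, with 1 lower. A difference was again built into the passing of 6 of the 9 macrophage genes, 3 of the 4 ciliary genes and 2 of the 6 higher fibroblast and pericyte genes, but of 0 endothelial genes. Aldh3a1, the single cornea gene tested, rose too. Of 7 pigmented cell genes 1 rose and 1 fell, and this list summed to less in Trpm3-M/M, 14.7 to 15.5 CPM against 23.9 to 26.2 in WT. The red blood cell list summed to 7.92 to 9.8 CPM against 1 to 8.13 in WT. In Trpm3-I/M, where no member was called, 7 of 8 endothelial genes rose as well, beside 4.19% of all genes, and 7 without replicate 3 of that genotype. There 2 of 9 bipolar genes rose and 1 fell, and 1 of 6 Muller glia genes rose and 1 fell. Of 12 amacrine, horizontal and ganglion cell genes 3 rose, as did 3 of 8 fibroblast and pericyte genes. No macrophage or ciliary gene was called. Without replicate 3 the numbers that rose in these 4 lists were 2, 1, 1 and 1. In Trpm3-M/M the lens fiber list had 2 of 13 genes called lower and the lens epithelium list 1 of 4, and neither had a gene called higher. All 13 fiber genes lay below WT in every library, as did 25.6% of the 17752 genes. The fiber list summed to 175000 to 182000 CPM against 262000 to 290000 in WT, and the epithelium list to 149 to 154 against 262 to 297. Whether any of these cells had a part in the levels of the photoreceptor genes was not tested.

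The genes most like each member across the 12 libraries were found among the 8984 genes by Pearson's r of log2 CPM, given as a description, since libraries of a genotype are not independent points. For Arr3 they were Spp1 (0.995), which encodes osteopontin, and Ctsa (0.994), a lysosomal protease gene. For Pde6b they were Immt (0.954) and Tm9sf1 (0.95), and for Sag Etv3 (0.935) and Atf2 (0.92). Gnat1 was closest to Pi4ka (0.929) and Cdcp1 (0.916), Gnat2 to Dusp11 (0.897) and Ubn2 (0.842), and Rcvrn to Ythdf3 (0.883). These values are the highest picked from 8984 genes, and members with few counts can reach a high r by counting noise. They do not show that the genes are expressed together.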

How the data were processed

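Lens RNA of P7 mice was sequenced in 12 libraries, 3 for each of 4 genotypes. The deposited table held estimated counts per gene, made by the authors from reads aligned to mm10. The authors aligned and quantified reads with DRAGEN, and bcl2fastq, edgeR and limma are also named in the submitters' processing notes. Of the deposited counts 88.4% were whole numbers, as were 101 of the 108 values of the chosen genes (8 of 9 genes were whole in every library, and Sag was not). A design for plain counts had been fixed, and the estimated counts were rounded. The table had 55774 entries for 55487 gene identifiers, and repeats of an identifier (168 identifiers) carried the same values and were dropped. A second deposited table, with CPM and with log2 fold changes and p-values of the authors' own comparisons, was not used.

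Library sizes were scaled by TMM. Genes with a CPM of at least 5 in at least 3 libraries (8984) were fitted with the quasi-likelihood test of edgeR 4.0.16 in R 4.3.3, over all 12 libraries, with Benjamini-Hochberg adjustment. The same fit with a CPM of at least 0.1 (17752 genes) served the scarce genes. Fold changes are on the log2 scale. Standard errors were derived from the test statistic. For scarce genes the ratio of summed CPM has an exact 95% interval, and it and the floor of 3 counts cover counting error only. The test was tried on simulated data first. Alternatives were DESeq2 1.42.0, other scalings and filters, crystallins left out, a replicate block, fits on the compared libraries alone, and each library left out in turn. Same-numbered libraries did not pair (18 pairs, r from -0.264 to 0.149), and replicate pairs of every genotype differed beyond counting noise.

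The genes and the lists were chosen with earlier results of these data known. The rule for naming further genes took the 3 most abundant genes of each list by mean CPM (2 for cells outside the retina), the 2 genes closest to each tested member, Trpm3 and Xist, and the text gives those that a result turns on. Other named genes were chosen after their values were seen. Some genes of the lists are not reported here. Coordinates are from a GENCODE annotation of GRCm38, and upstream sequences from RefSeq (GRCm38.p6), where 7 of the 9 genes had an entry. Python 3.11.15 was used with pandas 2.3.3, numpy 2.4.6 and matplotlib 3.10.9.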

Additional observations from a re-analysis of the deposited data

How the results depend on the processing

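Arr3, Sag and Pde6b were called higher in Trpm3-M/M, against WT and against Trpm3-I/M, under every alternative in which they were fitted. Against WT their log2 fold changes ran from 8.45 to 9.11, 1.11 to 1.80 and 1.33 to 2.05. No member was called in Trpm3-I/M or Trpm3-KO against WT under any alternative. The number of members called followed the filter. Against WT 1 was called at a CPM of at least 5, 4 at 0.1, 1 at 1 and 6 with no filter, and against Trpm3-I/M the numbers were 1, 3, 1 and 5. The share of all genes called against WT was 8.95% at 5, 17.1% at 0.1 and 10.7% with no filter. Against Trpm3-I/M these shares were 4.7%, 11.4% and 7.3%. No share was computed at 1, a filter that 12638 genes passed. Leaving out 1 library gave 0 to 1 called at a CPM of at least 5 in both comparisons, where 0 arose from applying the filter again without a Trpm3-M/M library, an alternative chosen after seeing the data, since Arr3 then failed it. At 0.1 leaving out 1 library gave 3 to 4 against WT and 3 to 4 against Trpm3-I/M. Rcvrn against WT lost its call in 7 of 22 alternatives, with adjusted p from 0.00521 to 0.112.

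Some directions turned, none of them in a comparison in which that gene was called, and the cause was not tested. Gnat1 in Trpm3-M/M against WT was -0.000582 without crystallin genes, -0.0109 with upper-quartile factors, -0.0029 with DESeq2 and -0.0024 on the compared libraries alone. Leaving out 1 library gave -0.44 to 0.31 for it, and with the filter applied again it was -0.411 without Trpm3-M/M replicate 1 and 0.33 without replicate 3. In Trpm3-KO against WT the same gave -0.18 to 0.14 for Gnat1, -0.029 to 1.11 for Gnat2, -0.49 to 1.15 for Rcvrn and -0.44 to 0.036 for Pde6b, and for Gnat2 in Trpm3-M/M against Trpm3-I/M it gave -0.22 to 0.69, with -0.166 without Trpm3-M/M replicate 3 and the filter applied again.

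Same-numbered libraries did not deviate together, so the replicate number names a library and does not pair it. A replicate block left the number of members called at 1 and 4 in Trpm3-M/M against WT and at 1 and 3 against Trpm3-I/M, with 0 in the other comparisons. Under the block Gnat1 in Trpm3-M/M against WT was -0.0308 and the adjusted p of Rcvrn was 0.0493. With scaling by library size alone the median log2 fold change of all 17752 genes in Trpm3-M/M against WT was 0.527, beside 0.02 with TMM factors. Most members rest on under 50 counts a library, which limits what could be called at this depth.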
